A study of Drosophila melanogaster with 9 samples.

Results

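A set of 9 genes of the response to the steroid hormone ecdysone, all of them outside the nuclear receptor family, were followed in whole Drosophila melanogaster flies that were either controls or mutants for the nuclear receptor E78A. They were chosen by name (shd, br, Eip74EF, Eip93F, Eip71CD, Eip63E, Eip63F-1, ImpE1 and ImpE2), and 8 of the 9 had a row in the count table, which lists 14865 of the 17737 annotated genes. The study used poly(A) RNA of whole adults at day 8, reared on a diet holding 8% yeast beside 9% sugar. The authors' sample sheet gives the 5 control libraries as w1118, a white-eyed laboratory strain, and the 4 mutant libraries as E7818.37. E78A is a product of the gene Eip78C, itself an ecdysone-induced gene, and the study was set up around its part in fat uptake by the gut and in body lipids. The labels give neither the sex and number of flies in a library nor the lesion in the allele. Nor do they say that libraries stem from separate crosses: the p-values therefore reflect only how far these samples vary, part of which may be technical.

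Ecdysone is made from dietary sterol by a chain of enzymes that includes several cytochrome P450 enzymes. The last enzyme, encoded by shd, turns ecdysone into the active hormone 20-hydroxyecdysone in the target tissues. The hormone binds the receptor pair EcR and usp, which switches on a small set of early regulators such as br, Eip74EF, Eip75B and Eip78C, and these in turn drive larger sets of late genes. The cascade is best known from the larva-to-adult change, but the hormone and its receptor also act in adults, in reproduction, gut growth and behaviour. The name Eip (ecdysone-induced protein) records how the genes were found and not what their products do.

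Library totals ran from 16556267 to 19093675 counts. In 4 of the 9 libraries (controls 4 and 5, mutants 3 and 4) the genotype tag contradicted the title. The sample sheet sided with the title in all 9, so titles were used, and values of the members from the 5 libraries whose labels agree are also given. Control replicate 3 lay farthest out on the first principal component, at -32.5, against -16.2 to -7.24 in the other controls and 17.4 to 23.9 in the mutants. The 3 yolk protein genes summed to 5.84 to 16.1 CPM, counts scaled to a common library size, per library, and 8 accessory gland markers to 5319 to 9175 CPM, as in mainly male flies. Summed markers of other tissues overlapped between genotypes: 11 gut enterocyte genes held 6556 to 8586 CPM in controls and 5302 to 8323 CPM in mutants, and 6 Malpighian tubule genes 263 to 315 and 252 to 327 CPM. The sums of the other lists ran from 2323 to 3101 CPM (12 testis genes), 7115 to 10273 (7 of fat body) and 5119 to 5874 (8 of muscle). They were 952 to 1166 CPM for 8 genes of neurons, 7443 to 8441 for 8 of photoreceptors and 357 to 519 for 6 of hemocytes. Among all these markers edgeR called the testis gene Mst84Db (log2 fold change 0.49) and the gut protease gene Jon99Ciii (-1.11). It called 1.63% of all tested genes. With the numbered pairs as a block, which is described further on, edgeR called both again and 7 more, where it called 3.77% of all genes. The share called was thus larger among these markers than over all genes. By list, that fit called 2 of 6 tubule genes, 1 of 12 testis, 1 of 7 fat body, 1 of 8 neuron and 1 of 6 hemocyte genes. Of 11 gut genes it called 1 higher and 2 lower. None was called among the yolk, accessory gland, muscle and photoreceptor genes. Of the 7, the gut genes were Amy-p (block log2 fold change 0.28) and Jon99Cii (-0.93). The others were apolpp of the fat body (-0.28), cac of neurons (-0.26), Irk3 and CapaR of the tubule (-0.31 and -0.73) and Hml of hemocytes (-0.35). DESeq2 called Mst84Db, Jon99Ciii, Irk3 and CapaR, where it called 3.44% of all genes. The part of these markers in the results was not tested. In whole-animal RNA, fewer cells of a type and less RNA per cell cannot be told apart. Eip78C itself had a mean of 10.6 ± 2.86 CPM over 5 controls and of 10.7 ± 1.45 CPM over 4 mutants (SD), so its summed count does not check the genotype labels.

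None of the measured ecdysone response genes was called different between the genotypes. At an adjusted p under 0.05 in edgeR's quasi-likelihood test, 0 of 8 were called, where 1.63% of the 13274 tested genes were called. At an unadjusted p under 0.05 there was 1, Eip71CD, where 15.1% of tested genes passed that threshold, so 1 of 8 is near the share over all genes. DESeq2 on the same counts also called 0 of 8, where it called 3.44% of genes. Of the log2 fold changes, mutant over control, 3 were positive and 5 negative, from -0.32 for Eip71CD to 0.14 for Eip74EF. The median size of the change, sign left aside, was 0.117 over the 8 genes and 0.123 over all tested genes. In 0 of 8 were the libraries of the genotypes free of overlap, which held for 6.16% of tested genes.

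The width of the intervals says how large a change could have gone unseen. For 6 of the 8 genes the 95% interval of the fold change lay wholly within 1.5-fold in either direction, which was so for 71.5% of all tested genes. The exceptions were shd and ImpE1, the 2 with the fewest counts, whose intervals reached 1.61-fold and 1.81-fold lower in the mutants.

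**Figure D1:**
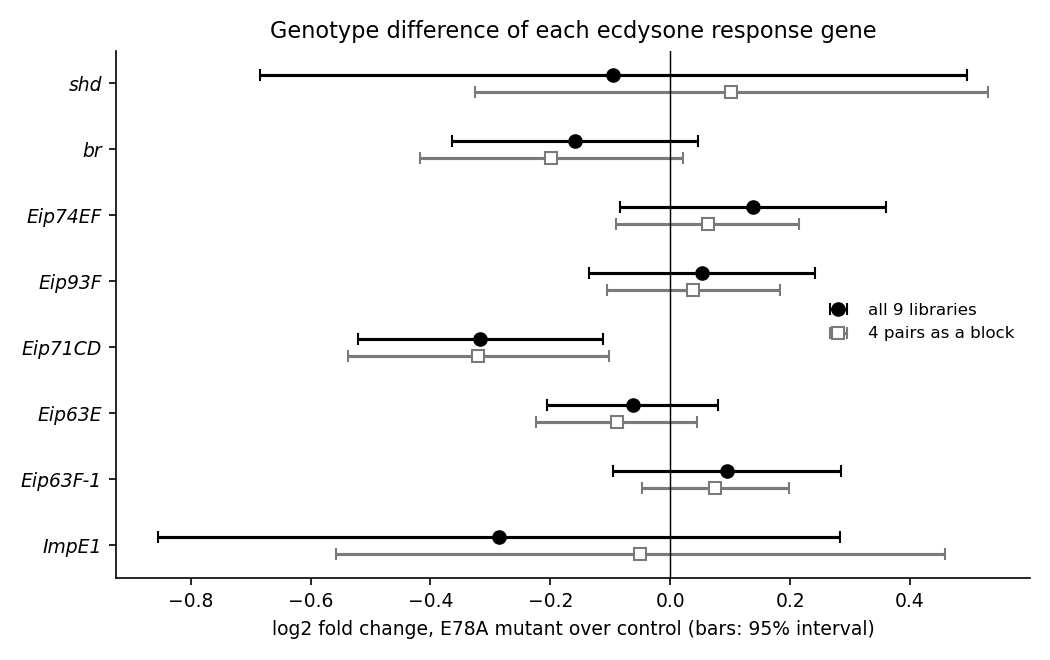
Log2 fold change of each gene, E78A mutant over control (horizontal axis), with its 95% interval, from the fit of all 9 libraries (filled circles) and from the fit with the 4 numbered pairs as a block (open squares). The interval of Eip71CD lies below 0 in both fits, from -0.52 to -0.11 and from -0.54 to -0.10, before adjustment over all genes, and those of shd and ImpE1 are the widest.

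The 8 genes covered a wide span of levels. Scaled to the length of their exons, Eip71CD was highest, at 39.7 CPM per kb over the 9 libraries, followed by Eip63F-1 (21.0), Eip93F (14.2), Eip63E (9.81), Eip74EF (3.21), shd (1.61), br (0.655) and ImpE1 (0.474), an 83.8-fold span. The median of all tested genes with a length was 11.8 CPM per kb. Thus Eip71CD lay above 80.6% of these 13181 genes, Eip63F-1 above 66.1% and Eip93F above 55.3%, while br lay above 3.44% and ImpE1 above 1.90%. Neighbours in this order did not overlap over the 9 libraries, except br and ImpE1. The scale spreads reads over every annotated exon of a gene, and br has 20.2 kb of them in the 16 transcripts of the annotation used for lengths, against 1.35 kb for Eip71CD. Per kb of the longest coding sequence the first 2 genes changed places, and so did shd and br.

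**Figure D2:**
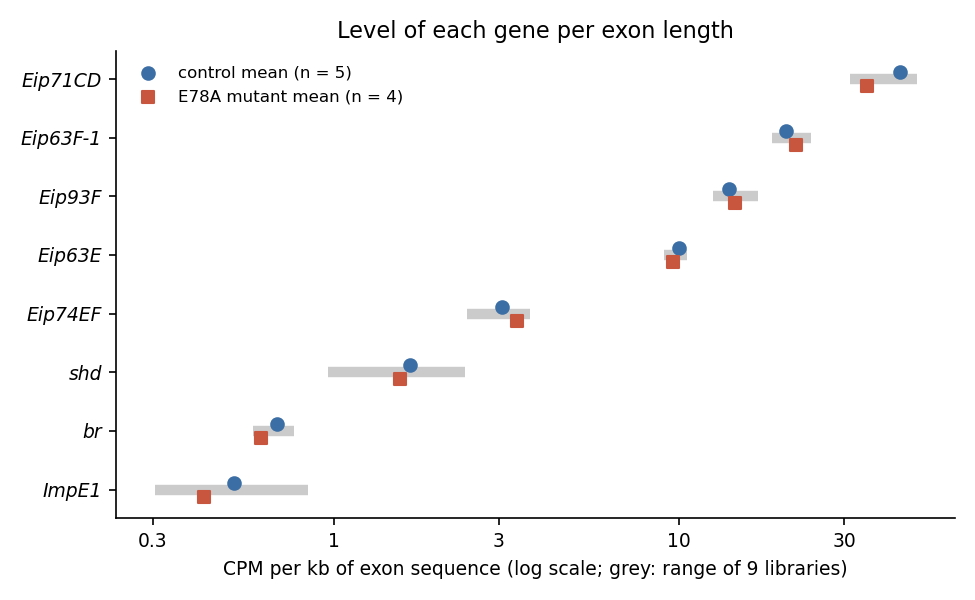
CPM per kb of exon sequence (log scale) of each gene, as the mean of 5 control libraries (circles) and of 4 mutant libraries (squares), with the range of all 9 libraries as a grey bar. Levels run from 0.474 CPM per kb for ImpE1 to 39.7 for Eip71CD, and only the bars of br and ImpE1 overlap with their neighbour in the order.

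The gene for the last step of hormone production, shd (FBgn0003388, chromosome 3L, 14614458 to 14622205 on build BDGP6, plus strand), was expressed at a low and uneven level. In order of replicate number, the controls had 4.48, 2.91, 7.22, 3.61 and 6.86 CPM and the mutants 3.87, 3.69, 5.53 and 5.65 CPM, from 53 to 126 counts each. All 4 mutant values lay inside the span of the controls, in which replicates 3 and 5 were the highest. The means were 5.02 ± 1.93 CPM (SD, n = 5) and 4.68 ± 1.05 CPM (SD, n = 4), and the log2 fold change was -0.095 (SE 0.27, edgeR adjusted p = 0.902). Its direction was not fixed by these data: it was 0.07 without control replicate 3 and 0.10 with the pairs as a block. The biological coefficient of variation of shd was 26.8%, the largest of the 8, against 18.6% for genes of its abundance.

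Of the transcription factors, br came closest to a difference. It encodes the Broad zinc-finger proteins, which commit larval tissues to the pupal state (FBgn0283451, X, 1575132 to 1664869, plus strand). The controls held 13.5, 13.8, 12.3, 14.2 and 15.5 CPM and the mutants 12.6, 11.8, 13.2 and 12.2 CPM. Mutant replicates 2 and 4 lay below all controls and the other 2 within their span, and control replicate 3 was the lowest control. The means were 13.9 ± 1.17 CPM (SD, n = 5) and 12.4 ± 0.585 CPM (SD, n = 4), with a log2 fold change of -0.16 (SE 0.094, edgeR adjusted p = 0.466). The whole of br lies inside the span of the mucin-type gene Mur2B on the other strand, with 189 exon bases in common. Mur2B had 7792 counts in all against 2112 of br, at 48.9 and 48.8 CPM in the 2 genotypes (log2 fold change -0.0035). No source used here states the strand setting of the counting, so reads over those shared bases cannot be assigned with certainty.

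Eip74EF, an ETS-domain factor and one of the classic early genes (FBgn0000567, 3L, 17558672 to 17619325, minus strand), was steady in all libraries but one. The controls held 30.2, 29.7, 22.6, 28.4 and 32.6 CPM and the mutants 30.4, 31.3, 30.2 and 34.5 CPM. The low value is that of control replicate 3, and the other 4 controls overlapped the mutants. The log2 fold change of 0.14 (SE 0.10, edgeR adjusted p = 0.563), from 28.7 ± 3.73 CPM (SD, n = 5) to 31.6 ± 1.96 CPM (SD, n = 4), came to 0.06 without that library.

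Eip93F, which encodes a DNA-binding factor that brings on adult differentiation and the death of larval tissues (FBgn0264490, 3R, 21949114 to 22014539, plus strand), was the most abundant of the 3 factors. The controls held 182, 159, 173, 182 and 189 CPM and the mutants 181, 176, 165 and 214 CPM. Only mutant replicate 4 lay outside the span of the controls. The means were 177 ± 11.9 CPM (SD, n = 5) and 184 ± 21.2 CPM (SD, n = 4). The log2 fold change of 0.05 (SE 0.087, edgeR adjusted p = 0.817) had a 95% interval from -0.14 to 0.24. It was -0.03 without mutant replicate 4.

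Eip71CD gave the largest difference of the set, although it did not pass the adjusted threshold. It encodes a methionine sulfoxide reductase, an enzyme that repairs oxidised methionine in proteins (FBgn0000565, 3L, 15511052 to 15513202, plus strand). The controls held 54.1, 57.9, 59.3, 57.7 and 65.8 CPM, and the mutants 56.3, 46.0, 44.9 and 42.2 CPM. Mutant replicates 2, 3 and 4 lay below every control, while mutant replicate 1 lay above the lowest control. The means were 59.0 ± 4.28 CPM (SD, n = 5) and 47.3 ± 6.16 CPM (SD, n = 4), a log2 fold change of -0.32 (SE 0.094, 95% interval -0.52 to -0.11). The unadjusted p was 0.0054, at which it ranked 539 among the 13274 genes, and the edgeR adjusted p was 0.133.

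The call on Eip71CD turned on a single library. Without mutant replicate 1 the log2 fold change was -0.41 (edgeR adjusted p = 0.0363), in a fit that called 1.7% of genes. Over all 17 alternatives that keep the grouping by title, the adjusted p ran from 0.0363 to 0.905, and this was the 1 alternative in which the gene passed. The highest p came from the 5 libraries whose labels agree, with a log2 fold change of -0.16. The authors' deposited table gave a log2 fold change of -0.31 and an adjusted p of 0.106. Partner enzymes of methionine repair were not called either. SelR, which acts on the other stereoisomer of the oxidised residue and was named after its values were seen, stood at 85.8 and 85.2 CPM in the 2 genotypes. Trx-2 and Trxr-1, the thioredoxin and its reductase that recharge such enzymes, had log2 fold changes of 0.21 and 0.22 (edgeR adjusted p = 0.268 and 0.421). Before adjustment the edgeR p of Trx-2 was 0.0279.

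**Figure D3:**
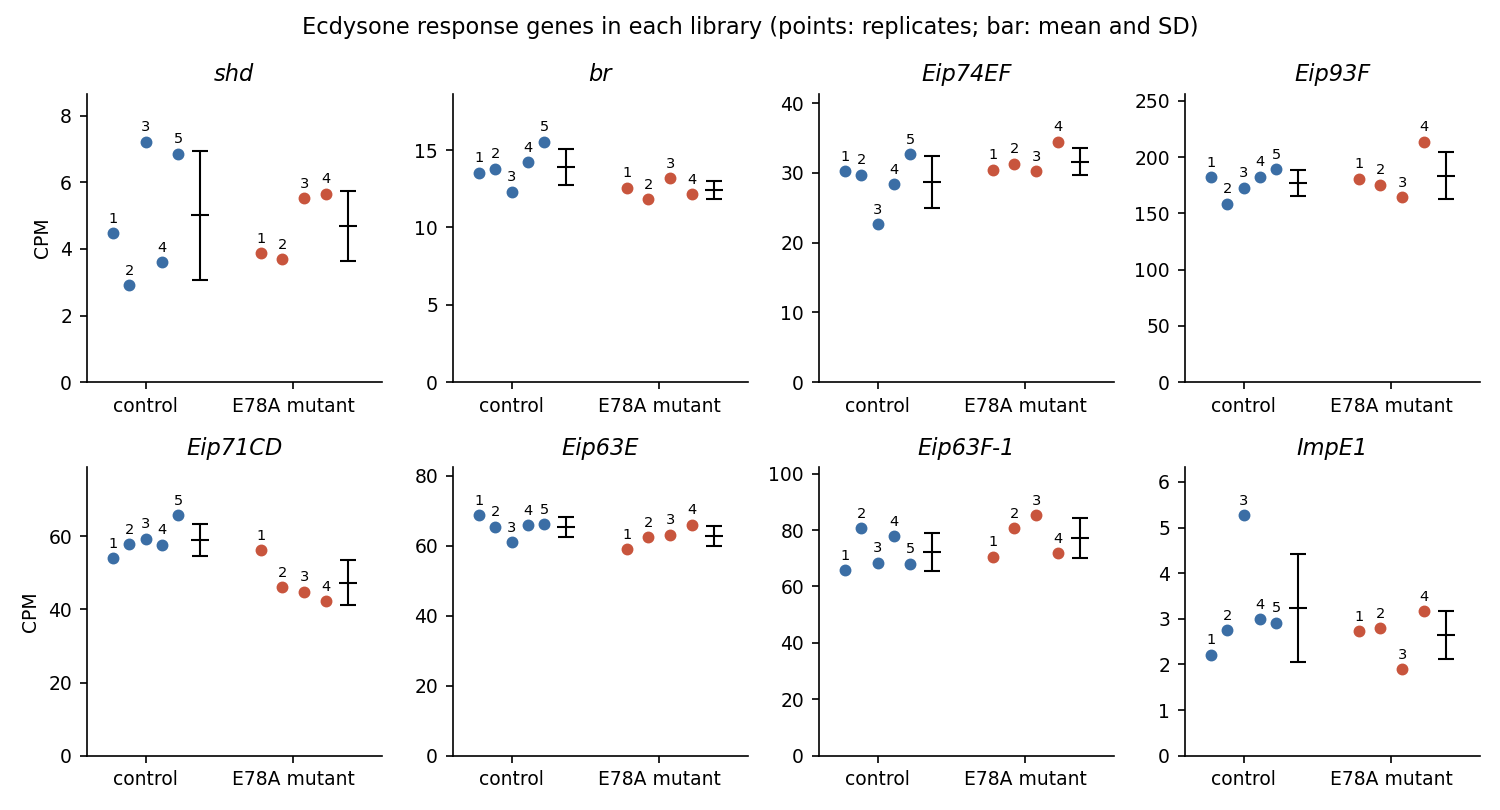
CPM of each of the 8 measured genes in every library (points, numbered by replicate, 5 controls and 4 E78A mutants), with the mean and SD of each genotype as a bar beside them; each panel has its own axis from 0. Mutant replicates 2, 3 and 4 lie below all controls for Eip71CD, at 42.2 to 46.0 CPM, and control replicate 3 stands apart for ImpE1, at 5.27 CPM.

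Eip63E was the steadiest gene of the set. It encodes a cyclin-dependent kinase that works with cyclin Y (FBgn0005640, 3L, 3515751 to 3610521, plus strand). The controls held 68.7, 65.4, 60.9, 65.9 and 66.1 CPM and the mutants 59.0, 62.4, 63.1 and 66.0 CPM. Only mutant replicate 1 fell outside the control span, and by less than 2 CPM. The log2 fold change was -0.062 (SE 0.066, edgeR adjusted p = 0.695) between 65.4 ± 2.83 CPM (SD, n = 5) and 62.6 ± 2.87 CPM (SD, n = 4). Its biological coefficient of variation, 8.79%, was the lowest of the 8. CycY, the gene of its cyclin, had a log2 fold change of 0.04 (edgeR adjusted p = 0.868). Of the small non-coding genes that lie within introns of Eip63E, snRNA:U7 and CR45820 held 12 and 11 counts in all, against 10219 for Eip63E.

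Eip63F-1 encodes a calcium-binding protein of the EF-hand family (FBgn0004910, 3L, 3909973 to 3935617, minus strand). The controls held 65.8, 80.7, 68.4, 77.9 and 68.1 CPM and the mutants 70.6, 80.6, 85.3 and 71.9 CPM. Mutant replicate 3 alone lay outside the span of the controls, so the groups interleaved. The means were 72.2 ± 6.64 CPM (SD, n = 5) and 77.1 ± 7.06 CPM (SD, n = 4), with a log2 fold change of 0.09 (SE 0.087, edgeR adjusted p = 0.649). The non-coding ecdysone-induced gene Eig63F-2 overlaps its start on the other strand, with 132 exon bases in common, and had 148 counts in all against 11839 of Eip63F-1 (log2 fold change 0.06, edgeR adjusted p = 0.952).

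ImpE1, one of the genes first found in imaginal discs, was the lowest of the 8 by level per kb. It encodes a membrane protein with repeats like those of the LDL receptor (FBgn0001253, 3L, 8372405 to 8391171, plus strand). The controls held 2.21, 2.75, 5.27, 3.0 and 2.92 CPM and the mutants 2.73, 2.79, 1.90 and 3.16 CPM, from 33 to 92 counts each. Control replicate 3 was well above all other libraries, which lay between 1.90 and 3.16 CPM with the genotypes mixed. The log2 fold change of -0.29 (SE 0.26, edgeR adjusted p = 0.645), from 3.23 ± 1.18 CPM (SD, n = 5) to 2.65 ± 0.532 CPM (SD, n = 4), came to -0.04 without that library. ImpE2, which encodes a secreted protein of everting discs (FBgn0001254, 3L, 3510974 to 3512681, minus strand), had no row in the count table, so no level is given for it.

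Control replicate 3 was thus the lowest of the 9 libraries for Eip74EF and the highest for shd and ImpE1. Mutant replicate 4 was at an end of the range as often, lowest for Eip71CD and highest for Eip74EF and Eip93F. Control replicate 3 is the library whose number in the sample sheet no mutant shares. Among the other 8, each number in the sheet belongs to a control and a mutant. These were read as 4 pairs, because libraries with the same number deviated together (correlations of 0.207 to 0.277 across genes). With the pairs as a block, 0 of 8 genes were called at an adjusted p under 0.05, where that fit called 3.77% of genes, 513 in place of 217. The smallest adjusted p was again that of Eip71CD, 0.115.

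Within the pairs, br was lower in the mutant of all 4, by log2 ratios of -0.11, -0.22, -0.11 and -0.35. Eip63E was also lower in all 4, from -0.22 to -0.0025, and Eip74EF was higher in all 4, from 0.01 to 0.09. These 3 of 8 compare with 25.5% of genes above 0 that went one way in all pairs. With the block, the log2 fold change of br was -0.20 (95% interval -0.42 to 0.02, edgeR adjusted p = 0.333) and Eip74EF 0.06 (adjusted p = 0.701). Eip71CD was lower in 3 pairs, by -0.33, -0.36 and -0.64, and slightly higher in the first, by 0.06. The ratios of shd and Eip93F were split evenly, and ImpE1 was higher in 3 pairs and lower by -0.66 in the pair of control replicate 4 and mutant replicate 3.

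**Figure D4:**
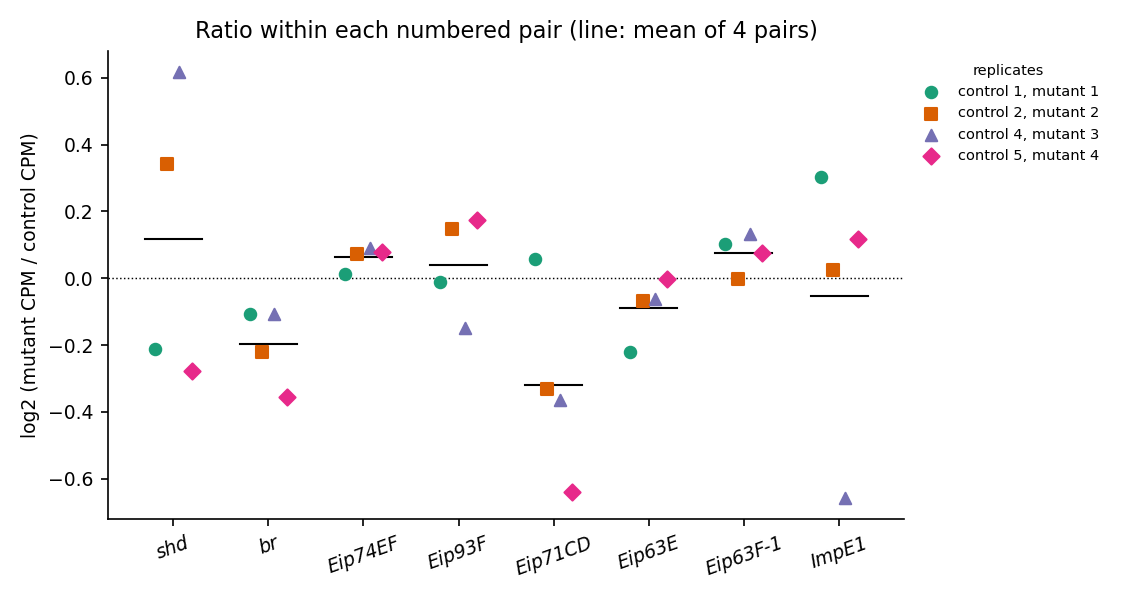
Log2 ratio of mutant to control CPM (vertical axis) for each gene within each of the 4 numbered pairs (symbols), with the mean of the pairs as a line. The ratios of br and Eip63E lie below 0 and those of Eip74EF above 0 in all 4 pairs, and those of shd and ImpE1 spread from -0.28 to 0.62 and from -0.66 to 0.30.

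In the 5 libraries whose title and tag agree, 3 controls and 2 mutants, 0 of 8 genes were called, where that fit called 0.157% of genes. At an unadjusted p under 0.05 it was also 0 of 8, where 5.86% of genes passed. All 8 log2 fold changes kept the sign they had over the 9 libraries, from -0.36 for shd to 0.17 for Eip74EF. The authors' deposited DESeq2 table also gave all 8 the same sign, with adjusted p values from 0.106 to 0.921. It rests on the same libraries, so it is not independent of the fit here.

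The other genes of the pathway gave a similar picture. No gene was called in 5 further lists, chosen with earlier results of these data known, at the background rate of 1.63%. Among 19 genes of hormone production, uptake and breakdown, 15 were tested, with 7 positive log2 fold changes, 8 negative and a median of -0.01, against -0.0024 over all tested genes. Of the 15, 1 had an unadjusted p under 0.05 by edgeR, where 15.1% of all tested genes passed. That gene was tor, the receptor tyrosine kinase through which the brain hormone Ptth stimulates the larval ecdysone gland. It stood at 12.6 ± 2.86 CPM in controls and 19.5 ± 8.08 CPM in mutants (log2 fold change 0.63, SE 0.27, edgeR adjusted p = 0.289). It passed in 1 alternative, without mutant replicate 1 (log2 fold change 0.87), and was at 0.08 in the 5 libraries whose labels agree. Npc1a, needed for sterol traffic, and Eo, which encodes an ecdysone oxidase, had log2 fold changes of -0.11 and -0.29 (adjusted p = 0.477 and 0.574). The 4 untested members were steps of hormone synthesis. The genes sro, spo and dib had 23, 24 and 24 counts over the 9 libraries together and spok had 3, a fraction of the 770 counts of shd.

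All 11 receptor and cofactor genes were tested and 0 had an unadjusted p under 0.05 by edgeR, against 15.1% of all tested genes, with a median log2 fold change of 0.02. EcR, which encodes the hormone-binding receptor subunit, stood at 37.6 ± 3.66 CPM in controls and 42.9 ± 5.04 CPM in mutants (log2 fold change 0.19, SE 0.099, adjusted p = 0.404). The corepressor gene Smr had 0.19 (adjusted p = 0.511) and trr, which encodes a histone methyltransferase that assists the receptor, 0.10 (adjusted p = 0.681). Control replicate 3 was the lowest library for each of them. Without it the log2 fold changes were 0.13 for EcR, 0.09 for Smr and 0.02 for trr.

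The 15 other early and early-late regulators had a median log2 fold change of 0.06, 9 positive and 6 negative, and 4 had an unadjusted p under 0.05, as did 15.1% of all tested genes. They were let-7-C, chinmo, sens and Eip75B. Eip75B, an early nuclear receptor gene named after its values were seen, had a log2 fold change of 0.27 (SE 0.12, edgeR adjusted p = 0.311). The primary transcript of the let-7 microRNA cluster, let-7-C, had 1.10 to 1.83 CPM in controls and 1.88 to 2.79 CPM in mutants, so the groups did not overlap (log2 fold change 0.81, SE 0.23, edgeR adjusted p = 0.126). It rests on 20 to 49 counts per library. Chinmo, a BTB zinc-finger factor that let-7 is known to repress, had 51.5 to 64.4 CPM in controls and 47.8 to 53.4 CPM in mutants (log2 fold change -0.24, SE 0.081, adjusted p = 0.176). A link between let-7-C and chinmo in these flies was not tested. For sens, a zinc-finger factor of sensory organ cells, the log2 fold change was -0.66 (SE 0.22, adjusted p = 0.182).

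Of 36 ecdysone-induced effectors, 19 had a row in the count table and 14 were tested. Of the other 17, 1 name (Eip63F-2) matched no annotated symbol, although the annotation holds the Eig63F-2 described above, and the rest had no row. They included 5 of the 6 larval glue protein genes (Sgs) and 10 of the 11 genes of the 71E late puff (Eig71E). The tested ones had a median log2 fold change of -0.05, 6 positive and 8 negative. At an unadjusted p under 0.05 by edgeR there was 1, Eig71Eb, where 15.1% of all tested genes passed. The 71E member that was tested, Eig71Eb, had 1.64 ± 0.321 CPM in controls and 0.950 ± 0.254 CPM in mutants (log2 fold change -0.78, SE 0.27, edgeR adjusted p = 0.195), without overlap of the groups, from 10 to 36 counts each. ImpL3, the gene for lactate dehydrogenase, had a log2 fold change of 0.22 (adjusted p = 0.367), and Mmp2, a matrix metalloproteinase gene, -0.23 (adjusted p = 0.429). The 5 partner genes, of which SelR, Trx-2, Trxr-1 and CycY are given above, had a median of 0.04. Of these 5, 1, Trx-2, had an unadjusted p under 0.05 by edgeR, where 15.1% of all tested genes passed.

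**Figure D5:**
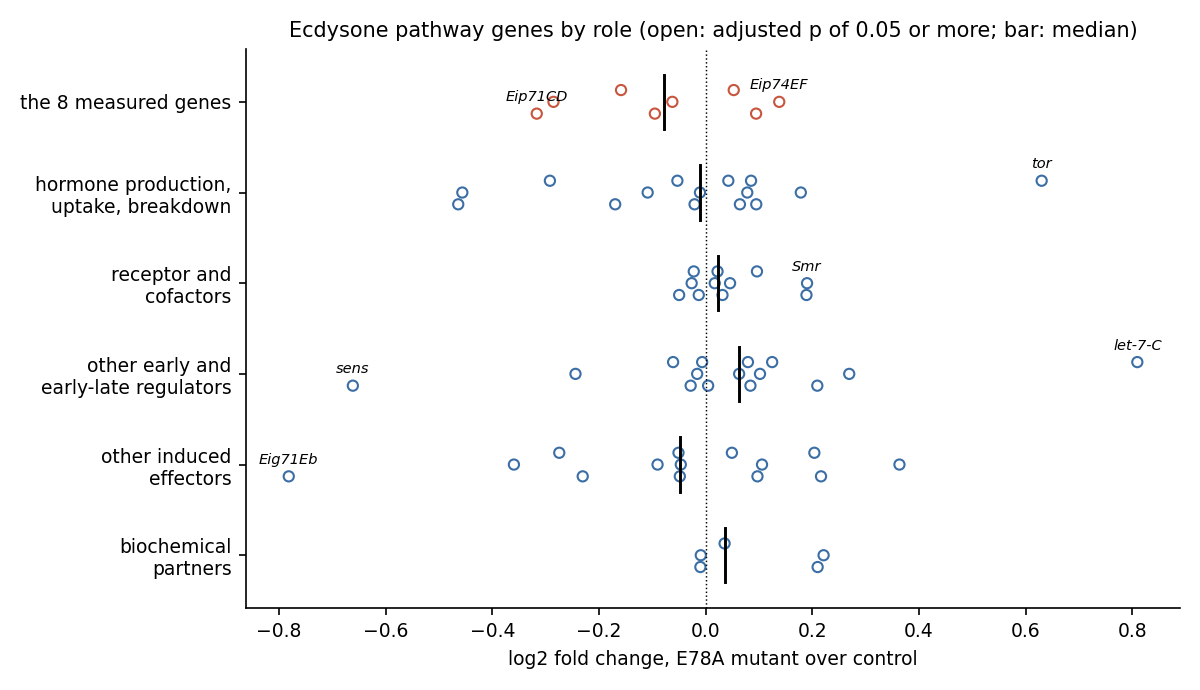
Log2 fold change, E78A mutant over control, of every tested gene in the set (top row) and in 5 lists of other ecdysone pathway genes (rows), with the list median as a bar; open points have an adjusted p of 0.05 or more. All points are open, the medians lie between -0.08 and 0.06, and let-7-C (0.81) and Eig71Eb (-0.78) lie farthest from 0.

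By position, 7 of the 9 genes lie on 3L, the arm that also carries Eip78C (21226609 to 21266503) and 19.4% of tested genes. ImpE2 and Eip63E are neighbours 3069 bases apart. Within 100 kb of the 9 genes, 3 of 210 tested genes were called, where 1.63% of all tested genes were. They were CG6690 near Eip93F (log2 fold change -0.42), CR43932 near Eip63F-1 (0.81) and Dscam4 near ImpE1 (0.77), named after their values were seen.

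Likeness to other genes is given only as a description of these libraries, which lie in one depth range. For 7 of the genes, the tested gene outside the set whose log2 CPM ran most nearly parallel over the 9 libraries is named. For Eip63F-1 this was CG3500 (Pearson r = 0.97, and 0.97 at the lowest when a library was left out). For Eip71CD it was CG13096 (0.96, lowest 0.93) and for Eip93F CG43736 (0.95, lowest 0.90). ImpE1 ran with CG8349 (0.94), which came to 0.80 without control replicate 3. Those of br, shd and Eip63E were wry, CG12379 and Ipod (0.93, 0.90 and 0.91). With 13274 genes and 9 libraries such values arise readily, and 27 genes reached 0.9 with Eip63F-1.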

How the data were processed

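Per the labels' protocols, stranded libraries were built from poly(A) RNA of whole animals and sequenced from both ends over 51 cycles. The authors deposited raw counts per gene. Tools listed in the submitters' processing notes are STAR 2.6.1b, cutadapt 1.16, featureCounts 1.6.3 and DESeq2 (1.20.0 and 1.22.2), with the builds BDGP6 and dm6. No source used here states the counting settings or how reads matching more than 1 gene were handled. The log2 fold changes and p-values of the authors' deposited comparison, in DESeq2 column names per the file headers, were only set beside the new fit. From the deposited sample sheet, which also holds a size factor (a ratio) per library, genotypes and replicate numbers were read.

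The members and gene lists were chosen with earlier results of these data known. Of 163 entries in 15 further lists, 162 matched the authors' annotation sheet (Ensembl 94) by symbol. The replicates used here are numbered in accession order. Counts were fitted over the whole table by the quasi-likelihood functions glmQLFit and glmQLFTest of edgeR 4.0.16 (R 4.3.3), with genotype as the only term, TMM scaling and a filterByExpr minimum of 10 counts. Benjamini-Hochberg adjustment ran over the p-values of 13274 genes, and the threshold was 0.05. Intervals are 95% and include the spread between libraries. CPM use TMM-scaled library sizes, and correlations log2 CPM with a prior count of 2. Exon lengths are unions of exons in the Ensembl 115 annotation (BDGP6.54), where all 9 members have the coordinates of the authors' sheet. No 2 replicates agreed within sampling noise (chi-square per degree of freedom, 17.3 to 42.9). Deviations of same-numbered libraries from their group means correlated at 0.207 to 0.277 across genes, against at most 0.0402 for other control and mutant libraries, so the sheet's numbers were taken to pair 4 controls with 4 mutants.

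Genes named are the members, Eip78C, the 3 with the smallest p in each list, overlapping genes and the gene most like each member, of which 1 is not reported here. The alternatives tried were scaling by RLE or upper-quartile factors, DESeq2 1.42.0, no filter, 1 CPM in 4 libraries, each library left out, the replicate block, 2 other readings of the labels, other thresholds and other length scales. The fits were tested on simulated data. Each simulated library was drawn independently, without the shared deviations of same-numbered libraries. The simulation therefore says nothing on how the fits behave with such pairing.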

Additional observations from a re-analysis of the deposited data

Results flagged for a closer look

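In the 16 groups of 4 or 5 libraries (8 genes in 2 genotypes), 1 library stood apart from its group by Dixon's test. ImpE1 was at 5.27 CPM in control replicate 3, against 2.21 to 3.0 CPM in the other controls. By chance about 5% of such groups are flagged, which is near 1 in 16. The same library lay farthest out on the first principal component of all genes, and whether that bears on ImpE1 was not tested.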

How the results depend on the processing

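The count of genes called over the whole table was 217. It was 500 with DESeq2, 513 and 542 with the replicate block on 8 and 9 libraries, 21 with the 5 libraries whose labels agree, 0 when grouped by genotype tag (171 at an unadjusted p under 0.05 by edgeR), 102 and 389 at an adjusted p under 0.01 and 0.1, and 127 to 291 with a library left out. The replicate block changed the call of no member and of no other named ecdysone gene. Members called were 0 to 1 with a library left out, and hormone production genes 0 to 1, which were Eip71CD and tor without mutant replicate 1. No other ecdysone list gained a call under any alternative run.

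Directions turned as follows, and the cause was not tested. Grouped by genotype tag, the log2 fold changes were 0.059 for br, 0.13 for Eip71CD, -0.0020 for Eip63F-1, -0.46 for tor, 0.065 for Npc1a, 0.062 for chinmo and 0.0049 for Mmp2. With the replicate block on 8 and 9 libraries, shd had 0.102 and 0.103 and Eip78C -0.0301 and -0.0283. Eip78C had -0.0097 with upper-quartile factors. With a library left out, shd ran from -0.24 to 0.071, Eip93F from -0.029 to 0.10 and Eip78C from -0.075 to 0.19. The counts are lowest, and the intervals widest, for shd and ImpE1.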
